A study of Homo sapiens with 8 samples.

Results

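The genes described here are 52 genes of the endoplasmic reticulum (ER) that carry new proteins into it, fold and oxidise them, dispose of the misfolded ones, or sense unfolded protein. They were listed by name, with earlier results of these data known, and no threshold on their values set the list. All 52 were found among the 23228 genes counted, and 51 of them were among the 13915 genes with enough reads to test. By role they were 16 chaperones and co-chaperones, 11 genes of disulfide formation, 10 genes of ER-associated degradation (ERAD, the export and destruction of misfolded proteins), 3 stress sensors and 12 genes of translocation and signal peptide cleavage.

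Proteins bound for the cell surface or for secretion enter the ER through the Sec61 channel, lose their signal peptide, receive sugars and are folded by chaperones such as BiP (HSPA5) and by protein disulfide isomerases. When unfolded protein builds up, the sensors IRE1 (ERN1), ATF6 and PERK (EIF2AK3) start the unfolded protein response: IRE1 splices the XBP1 transcript, ATF6 is cut to release a transcription factor, and PERK slows translation and favours ATF4. XBP1 and ATF6 induce chaperones and ERAD genes through elements in their promoters, and ATF4 induces genes of amino acid supply and, through DDIT3 (CHOP), of cell death.

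RNA sequencing had been done on 8 libraries in 4 groups of 2, whose labels give the cells as U87 MG, a human cell line established from a glioblastoma and grown in DMEM with serum. The ERβ5 and ERβ1 groups are labelled as ERβ knockout cells that express 1 isoform of estrogen receptor beta (ERβ, gene ESR2), the ERβ-KO group as the knockout without an added isoform, and the control group as cells without the knockout, so that the labelled knockout is shared by the first 3 groups. The labels used here do not say how ESR2 was disrupted, how an isoform was delivered, whether a group is 1 clone, or whether replicate libraries stem from separate cultures. P-values therefore measure only the spread between these libraries, which may be technical.

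Gene reads per library numbered 26760897 to 48076414, and replicates correlated across genes at r = 0.991 to 0.996. The spread between replicates was unequal. As chi-square per degree of freedom, where counting noise alone gives about 1, it was 41.4 in ERβ5, 21.5 in ERβ1, 26.2 in ERβ-KO and 7.52 in control libraries. The tests pooled this spread over all 4 groups. ESR2 had 7 and 10 reads in ERβ5, 6 and 18 in ERβ1, 23 and 21 in ERβ-KO and 25 and 20 in control libraries, and it was not called in any comparison (adjusted p = 0.932 for ERβ-KO against control). Every isoform library had fewer ESR2 reads than both ERβ-KO libraries (log2 fold change -1.11 ± 0.44, adjusted p = 0.0761 for ERβ5 and -0.92 ± 0.41, adjusted p = 0.118 for ERβ1), and ERβ-KO and control overlapped. At these low counts ESR2 therefore shows neither the labelled knockout nor a labelled added isoform, and every direction given here is between libraries named by their labels. Of the markers of cell types, 1 of 5 glioma and astrocyte markers (SOX2) and 3 of 6 mesenchymal markers (FN1, CD44 and LGALS1) reached 10 CPM (counts scaled to a common library size) in all libraries, while OLIG2 and POSTN had 0 reads throughout. All 7 luminal epithelial markers (KRT8, KRT18, CDH1, EPCAM, GATA3, ESR1 and TFF1) reached it, which goes against the labelled cell line. Their summed level was 11200 to 11900 CPM in ERβ5, 12100 to 13100 in ERβ1, 7930 to 8040 in ERβ-KO and 9470 to 10100 CPM in control libraries. The share of reads that had no unique place was 35.5 and 34.7% in ERβ5, 37.7 and 37.8% in ERβ1, 35.4 and 36.4% in ERβ-KO and 39.7 and 39.9% in control libraries. The correlation across 13123 genes, which are not independent replicates, between transcript GC content and a library's deviation from the mean of all 8 was 0.122 and 0.34 in ERβ5, 0.356 and -0.137 in ERβ1, -0.566 and -0.464 in ERβ-KO and 0.127 and 0.196 in control libraries. The part of the marker sums and of unplaced reads in the results below was not tested. For GC content, calls of the named members that were lost once its trend was removed are given with the log2 fold change and adjusted p that remained. Calls gained that way are given for part of the members, beside those of the main fit, which leaves the trend in.

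Together the 52 genes gave 18200 and 16900 CPM in ERβ5 libraries, 21300 and 21200 CPM in ERβ1, 20000 and 23900 CPM in ERβ-KO and 30900 and 30900 CPM in control libraries. The control libraries were the highest, with no overlap with any other group, and the ERβ5 libraries were the lowest. In shares of all gene reads this was 1.84 and 1.67% in ERβ5, 2.12 and 2.13% in ERβ1, 2.05 and 2.39% in ERβ-KO and 3.06 and 3.06% in control libraries. In these bulk samples fewer cells of a type and less RNA per cell cannot be told apart. Most of the difference in this sum lay in the chaperones, which summed to 9040 and 7860 CPM in ERβ5, 11000 and 10700 in ERβ1, 9610 and 12100 in ERβ-KO and 17400 and 17300 CPM in control libraries. Much of that lay in the abundant HSPA5, HSP90B1 and CALR. They averaged 2360, 1700 and 1580 CPM in ERβ-KO and 3990, 3820 and 3540 CPM in control libraries. All chaperones together averaged 10900 and 17300 CPM in those groups. The 12 translocation genes summed to 2890 and 2920 CPM in ERβ5, 2990 and 3240 in ERβ1, 3280 and 3850 in ERβ-KO and 3590 and 3680 CPM in control libraries, where the ERβ-KO and control libraries overlapped.

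**Figure D1:**
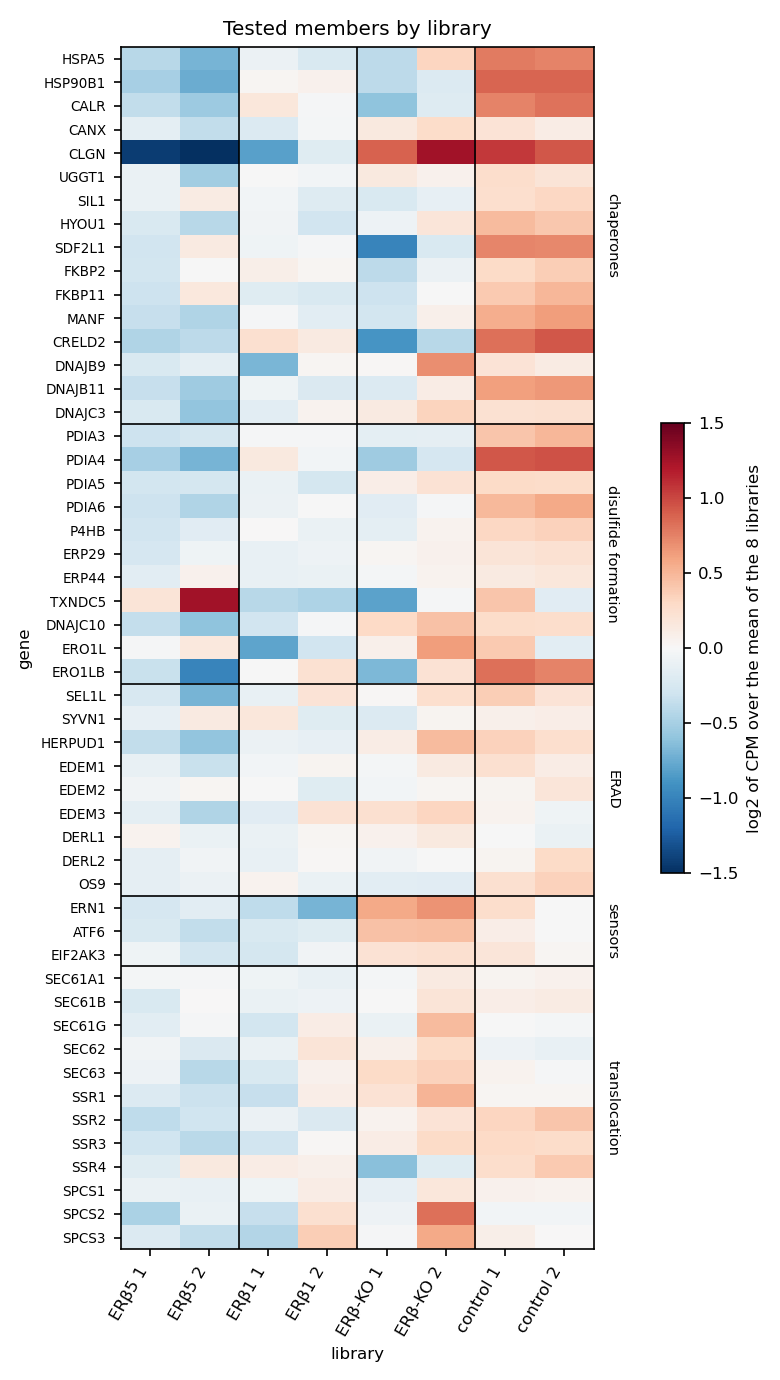
Log2 of each tested member's CPM in a library over its mean in the 8 libraries (colour), for 51 genes grouped by role (rows) and 8 libraries (columns). Most chaperone and disulfide rows are red in both control libraries and pale or blue elsewhere, CLGN is dark blue in the ERβ5 libraries at 15 and 12.3 CPM, and the sensor rows are reddest in the ERβ-KO libraries.

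Compared per length, as mean CPM per kilobase of the canonical transcript, the most abundant member was CALR at 1160, followed by HSP90B1 at 812, P4HB at 749, HSPA5 at 641, SSR2 at 586, SSR4 at 530 and CANX at 492. By counted reads the least abundant tested members were TXNDC5 at 0.15 CPM per kilobase, ERO1LB at 1.69 and SPCS2 at 3.88. SPCS2 has 4 pseudogenes named after it, so that reads the copies share would be uncounted or split. TXNDC5, a disulfide isomerase that is abundant in many secretory cells, stayed between 0.229 and 0.955 CPM in all libraries (8 to 26 reads). Reads ambiguous between genes were left out of the counts, and whether TXNDC5 lost reads that way was not tested. DERL3, an ERAD channel subunit, had 0 reads in every library, which allows up to 0.0618 to 0.113 CPM (3 reads) depending on the library's depth. DERL3 is therefore the member without a test.

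The reference promoters of several members carry the elements that XBP1 and ATF6 bind, shown here because several of these genes are among the largest changes described afterwards. RefSeq windows on GRCh38.p14 of 250 bases before to 50 after the start were matched for 48 members and not for PDIA3, DERL1, DERL3 and SPCS1. The ER stress element (ERSE), searched on both strands as CCAAT, 9 bases of any kind and CCACG, was in 6 of the 48 windows (12.5%) and in 27 of all 35116 promoters (0.0769%). Both this element and many members were picked for their part in the unfolded protein response. An excess over all promoters was therefore built into the choice, and the shares only describe the list. The 7 sites are written with the conserved ends in capitals and read on the strand of the element:
HSPA5 site: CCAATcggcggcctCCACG
HSP90B1 upstream site: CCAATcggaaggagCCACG
HSP90B1 downstream site: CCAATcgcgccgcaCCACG
CALR site: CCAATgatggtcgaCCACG
CANX site: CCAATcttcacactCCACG
CRELD2 site: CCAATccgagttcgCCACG
ERO1LB site: CCAATgaggcgggaCCACG

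In 4 of the members that fell most or lie highest, the 250 bases before the start are shown 5′ to 3′ in the direction of transcription, with the conserved ends of ERSE in capitals. HSPA5 (minus strand, chr9:125241344-125241593) carries its site at -66, HSP90B1 (plus strand, chr12:103930160-103930409) carries a site at -194 and, on the opposite strand, another at -71, and CALR (plus strand, chr19:12938359-12938608) and CRELD2 (plus strand, chr22:49918384-49918633) carry theirs on the opposite strand at -207 and -62, where a position is that of the first base of CCAAT. On the opposite strand the ends read CGTGG and ATTGG.
HSPA5: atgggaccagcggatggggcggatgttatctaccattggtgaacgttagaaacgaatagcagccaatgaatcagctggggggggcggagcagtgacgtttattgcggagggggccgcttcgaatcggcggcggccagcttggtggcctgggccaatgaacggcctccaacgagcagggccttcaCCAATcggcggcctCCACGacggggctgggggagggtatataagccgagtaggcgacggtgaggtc
HSP90B1: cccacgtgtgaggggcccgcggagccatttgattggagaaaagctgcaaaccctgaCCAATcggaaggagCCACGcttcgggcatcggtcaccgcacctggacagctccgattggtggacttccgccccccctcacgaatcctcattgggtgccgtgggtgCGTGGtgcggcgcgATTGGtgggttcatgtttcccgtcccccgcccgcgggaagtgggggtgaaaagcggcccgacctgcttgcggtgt
CALR: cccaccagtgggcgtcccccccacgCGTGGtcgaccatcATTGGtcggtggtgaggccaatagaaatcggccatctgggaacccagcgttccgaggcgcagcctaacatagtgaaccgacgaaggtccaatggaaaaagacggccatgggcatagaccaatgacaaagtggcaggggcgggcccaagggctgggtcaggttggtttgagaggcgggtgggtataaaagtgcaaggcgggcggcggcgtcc
CRELD2: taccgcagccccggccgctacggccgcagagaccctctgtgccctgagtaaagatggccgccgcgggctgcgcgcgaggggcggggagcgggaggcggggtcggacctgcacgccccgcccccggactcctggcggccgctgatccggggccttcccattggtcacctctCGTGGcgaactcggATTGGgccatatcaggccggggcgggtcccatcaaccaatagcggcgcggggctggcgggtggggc

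A shorter element, ERSE-II, searched as ATTGG and CCACG 1 base apart, was in 3 of the 48 windows (6.25%) and in 19 of all promoters (0.0541%). It lay in HYOU1 (minus strand, chr11:119057206-119057455), which holds it at 2 places, in SDF2L1 (plus strand, chr22:21642052-21642301) and in HERPUD1 (plus strand, chr16:56931892-56932141). They are shown because SDF2L1 was called lower in ERβ-KO against control and HERPUD1 in both isoform groups against ERβ-KO, while both were called lower in ERβ5 against control, and the capitals mark ERSE-II and, in HYOU1, an overlapping UPRE.
HYOU1: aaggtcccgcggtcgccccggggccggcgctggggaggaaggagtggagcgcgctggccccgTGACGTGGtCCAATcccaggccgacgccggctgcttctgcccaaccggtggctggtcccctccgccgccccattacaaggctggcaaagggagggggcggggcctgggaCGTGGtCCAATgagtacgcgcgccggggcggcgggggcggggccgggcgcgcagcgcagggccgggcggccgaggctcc
SDF2L1: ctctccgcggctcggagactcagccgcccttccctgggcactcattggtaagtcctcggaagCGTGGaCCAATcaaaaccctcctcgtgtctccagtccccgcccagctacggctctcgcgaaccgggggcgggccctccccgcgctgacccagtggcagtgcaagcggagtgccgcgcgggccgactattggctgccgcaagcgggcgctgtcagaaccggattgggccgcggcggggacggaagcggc
HERPUD1: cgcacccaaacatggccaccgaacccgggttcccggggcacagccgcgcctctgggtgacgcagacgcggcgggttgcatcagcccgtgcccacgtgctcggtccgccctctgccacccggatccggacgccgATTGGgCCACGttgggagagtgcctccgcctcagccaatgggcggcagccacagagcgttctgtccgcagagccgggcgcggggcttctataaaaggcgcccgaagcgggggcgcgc
The XBP1 element UPRE, searched as TGACGTGG, was in 3 windows (HYOU1, DNAJC10 and SEC62, 6.25% of 48) and in 256 of all promoters (0.729%). The cyclic AMP element TGACGTCA was in none of the 48 and in 649 of all promoters (1.85%), and the amino acid response element TGATGNAA was in 1 (HERPUD1, 2.08%) and in 1270 of all promoters (3.62%). As for ERSE, an excess of ERSE-II or UPRE was built into the choice of element and list. A match describes the letters of the reference and not binding, and the window of a gene without a match says only that these letters are not in it.

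**Figure D2:**
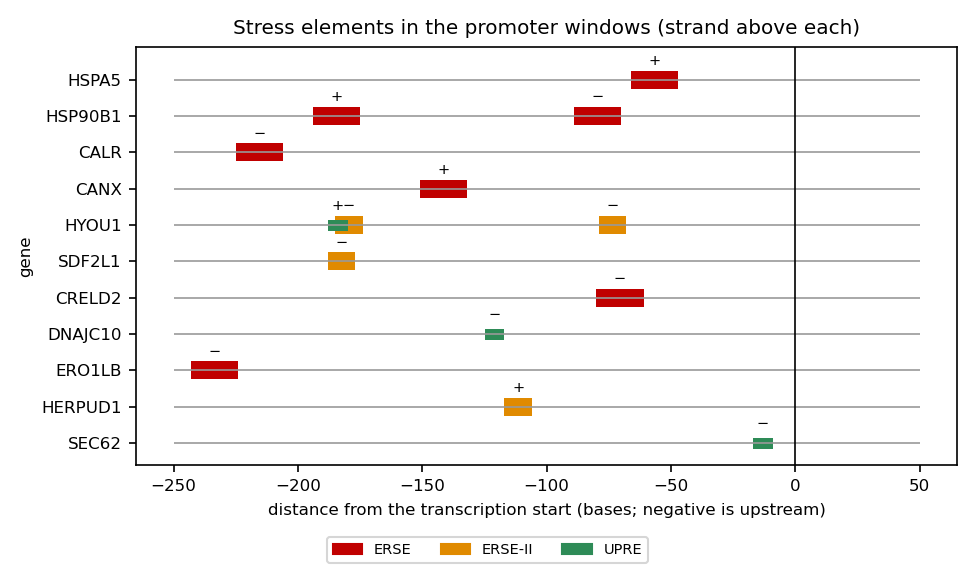
Position of ERSE, ERSE-II and UPRE matches (coloured boxes, strand above) in the windows of the 11 members that hold at least 1, against the distance from the transcription start in bases (line at 0). All ERSE and ERSE-II boxes lie upstream of the start, at -66 in HSPA5 and -62 in CRELD2, and HSP90B1 and HYOU1 hold 2 boxes of 1 kind each.

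In ERβ-KO against control libraries 10 of the 16 chaperones and 5 of the 11 disulfide genes were lower, among them HSPA5, HSP90B1, CALR and PDIA4. A gene was called changed when its p from edgeR's quasi-likelihood F test, corrected by Benjamini and Hochberg's procedure across the 13915 genes tested, was under 0.05. Of the 51 tested members 17 were called lower (33.3%) and 2 higher (3.92%), against 8.52% of all genes called lower and 8.98% called higher. The members' median log2 fold change was -0.13 and that of all genes 0.009, and the members' median was -0.23 with the GC and length trend removed and -0.07 without ERβ-KO replicate 1. The 17 falls were 10 of 16 chaperones (median -0.58), 5 of 11 disulfide genes (median -0.37), 1 of 9 tested ERAD genes (OS9, median -0.12) and 1 of 12 translocation genes (SSR4, median 0.11), while 2 of 3 sensors were called higher (median 0.40). With the GC and length trend of each library removed, 18 members were called lower and 1 higher. Falls gained there were those of ERP44 (-0.45, edgeR adjusted p = 0.0437), SEL1L (-0.43, 0.0407), DERL2 (-0.51, 0.019) and SSR3 (-0.39, 0.0127). The count of members called lower was 10 without control replicate 1, 5 without control replicate 2, 7 without ERβ-KO replicate 1 and 18 without ERβ-KO replicate 2, and no member was called higher in any of these 4 fits.

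HSPA5, the Hsp70 of the ER lumen (BiP) and the main regulator of the sensors, lies on the minus strand of chromosome 9 (GRCh37, chr9:127997132-128003661). It had 1760 and 1450 CPM in ERβ5, 2210 and 2010 in ERβ1, 1790 and 2940 in ERβ-KO and 4040 and 3930 CPM in control libraries. Both control libraries lay above all others, and the ERβ-KO libraries were far apart from each other. The log2 fold change of ERβ-KO over control was -0.75 ± 0.19 (SE, adjusted p = 0.0251, edgeR). With the GC and length trend removed the fold change was slightly larger, at -0.83, but the adjusted p was 0.0534 (-0.85 and 0.0816 when replicate number was blocked too). The call was also lost without control replicate 1 (0.121), control replicate 2 (0.131) or ERβ-KO replicate 1 (0.102). ERβ5 over control was -1.31 ± 0.19 (adjusted p = 0.00166), a call kept under all of those changes. ERβ1 over control was -0.92 ± 0.19 (adjusted p = 0.0255), and the adjusted p ran up to 0.194 without control replicate 1 and was 0.107 without control replicate 2, 0.113 without ERβ1 replicate 1 and 0.143 without ERβ1 replicate 2.

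HSP90B1, the Hsp90 of the ER (GRP94; GRCh37, chr12:104323885-104347709, plus strand), had 1480 and 1240 CPM in ERβ5, 2120 and 2180 in ERβ1, 1590 and 1800 in ERβ-KO and 3810 and 3830 CPM in control libraries. The 4 groups did not overlap, in the order ERβ5, ERβ-KO, ERβ1 and control from low to high. In ERβ-KO over control HSP90B1 stood at -1.17 ± 0.11 on the log2 scale, 2.26-fold lower (adjusted p = 0.00026). In ERβ1 over ERβ-KO HSP90B1 stood at 0.34 ± 0.11 (adjusted p = 0.0447), a call lost without any 1 of the 4 libraries (adjusted p = 0.211 without ERβ-KO replicate 1, 0.0531 without ERβ-KO replicate 2, 0.155 without ERβ1 replicate 1 and 0.132 without ERβ1 replicate 2) and with the replicate block (0.0539), while with the GC and length trend removed it was 0.54 (0.00319). ERβ5 over ERβ-KO was -0.32 ± 0.11 (adjusted p = 0.0553, 95% interval -0.57 to -0.07). ERβ5 over ERβ1 was -0.66 ± 0.11 (adjusted p = 0.00626), which was lost without ERβ1 replicate 1 (0.0643) or ERβ1 replicate 2 (0.0718).

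CALR, the calcium-binding lectin calreticulin that holds new glycoproteins (GRCh37, chr19:13049392-13055303, plus strand), had 1600 and 1410 CPM in ERβ5, 2310 and 2030 in ERβ1, 1350 and 1800 in ERβ-KO and 3460 and 3620 CPM in control libraries. The control libraries were above all others, the ERβ1 libraries came next, and ERβ5 and ERβ-KO overlapped. Its log2 fold change in ERβ-KO over control was -1.17 ± 0.14 (2.25-fold lower, adjusted p = 0.000751). Its log2 fold change in ERβ1 over ERβ-KO was 0.46 ± 0.14 (adjusted p = 0.0306), which was lost without ERβ-KO replicate 1 (0.194) or ERβ1 replicate 1 (0.217) and with the GC and length trend removed (0.34, adjusted p = 0.0776). ERβ1 over control was -0.70 ± 0.14 (adjusted p = 0.0152), lost without any 1 of the 4 libraries (0.0945 and 0.0982 without control replicates 1 and 2, and 0.0678 and 0.122 without ERβ1 replicates 1 and 2). An antisense transcript overlaps CALR in the annotation, and without the strand setting of the counting its reads cannot be told apart. Its membrane-bound relative CANX (calnexin), whose promoter also holds ERSE, was not called in ERβ-KO against control (0.06 ± 0.11, adjusted p = 0.752) and had 2660 and 2900 CPM in ERβ-KO and 2760 and 2580 CPM in control libraries.

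CRELD2, which had the largest fall in ERβ-KO libraries before any removal of the GC and length trend, is an ER stress-induced disulfide isomerase-like protein (GRCh37, chr22:50311815-50321188, plus strand). It had 82.1 and 84.9 CPM in ERβ5, 132 and 123 in ERβ1, 60.8 and 83.8 in ERβ-KO and 198 and 214 CPM in control libraries. ERβ1 libraries lay between the other groups, and ERβ5 and ERβ-KO overlapped. For ERβ-KO over control the log2 fold change was -1.51 ± 0.14 (2.85-fold lower, adjusted p = 0.000143), and ERβ1 over ERβ-KO was 0.82 ± 0.13 (1.76-fold higher, adjusted p = 0.00157). Both of these calls were kept without any single library and with the GC and length trend removed, where they were -1.22 and 0.55. CRELD2 then came after ERO1LB (-1.37), HSP90B1 (-1.36) and PDIA4 (-1.28), all 3 of them called as well. ERβ5 over ERβ1 was -0.61 ± 0.13 (adjusted p = 0.0231), lost without ERβ1 replicate 1 (0.114), ERβ1 replicate 2 (0.0914) or ERβ5 replicate 2 (0.0876).

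PDIA4, the disulfide isomerase ERp72 (GRCh37, chr7:148700154-148725754, minus strand), had 612 and 532 CPM in ERβ5, 956 and 836 in ERβ1, 597 and 723 in ERβ-KO and 1640 and 1670 CPM in control libraries. Control libraries were highest and ERβ1 libraries next, and ERβ5 and ERβ-KO overlapped. In ERβ-KO over control PDIA4 stood at -1.33 ± 0.12 (2.51-fold lower, adjusted p = 0.000176) and was called without any single library. For ERβ1 over ERβ-KO the log2 fold change was 0.44 ± 0.12 (adjusted p = 0.0224), lost without ERβ-KO replicate 1 (0.151) or ERβ1 replicate 1 (0.18). ERβ5 over ERβ1 was -0.65 ± 0.12 (adjusted p = 0.0107), lost without ERβ1 replicate 1 (0.0927) or ERβ5 replicate 2 (0.0604). ERSE was not found in its promoter window.

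SDF2L1, a partner of the BiP co-chaperone DNAJB11, had 32.9 and 43.9 CPM in ERβ5, 38.3 and 39.5 in ERβ1, 20.2 and 34.3 in ERβ-KO and 66.6 and 65.9 CPM in control libraries. Control libraries were above the rest, and ERβ5 overlapped both ERβ1 and ERβ-KO. Its log2 fold change in ERβ-KO over control was -1.29 ± 0.21 (2.44-fold lower, adjusted p = 0.00488), and -0.84 with the GC and length trend removed (adjusted p = 0.00541). In ERβ1 over ERβ-KO SDF2L1 stood at 0.52 ± 0.21 (adjusted p = 0.0977) and ERβ5 over ERβ-KO 0.50 ± 0.21 (adjusted p = 0.103), neither of which was called. The other chaperones called lower in ERβ-KO were MANF, a secreted BiP-binding survival factor (-0.68 ± 0.12), DNAJB11, a co-chaperone of BiP (-0.67 ± 0.12), the prolyl isomerases FKBP11 (-0.60 ± 0.15) and FKBP2 (-0.56 ± 0.13), and SIL1, the nucleotide exchange factor of BiP (-0.46 ± 0.11). Without control replicate 2 the adjusted p was 0.0692 for MANF, 0.0644 for DNAJB11, 0.149 for FKBP11, 0.128 for FKBP2 and 0.149 for SIL1, and without ERβ-KO replicate 1 it was 0.0585, 0.0585, 0.159, 0.128 and 0.123 in the same order. The last 3 were also lost without control replicate 1 (0.0766, 0.0707 and 0.0921), and FKBP2 with the GC and length trend removed (-0.23, adjusted p = 0.0783). FKBP11 and SIL1 remained called with that trend removed, at -0.37 and -0.24. HYOU1, the other exchange factor, was at -0.38 ± 0.12 and missed the threshold (adjusted p = 0.0551).

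**Figure D3:**
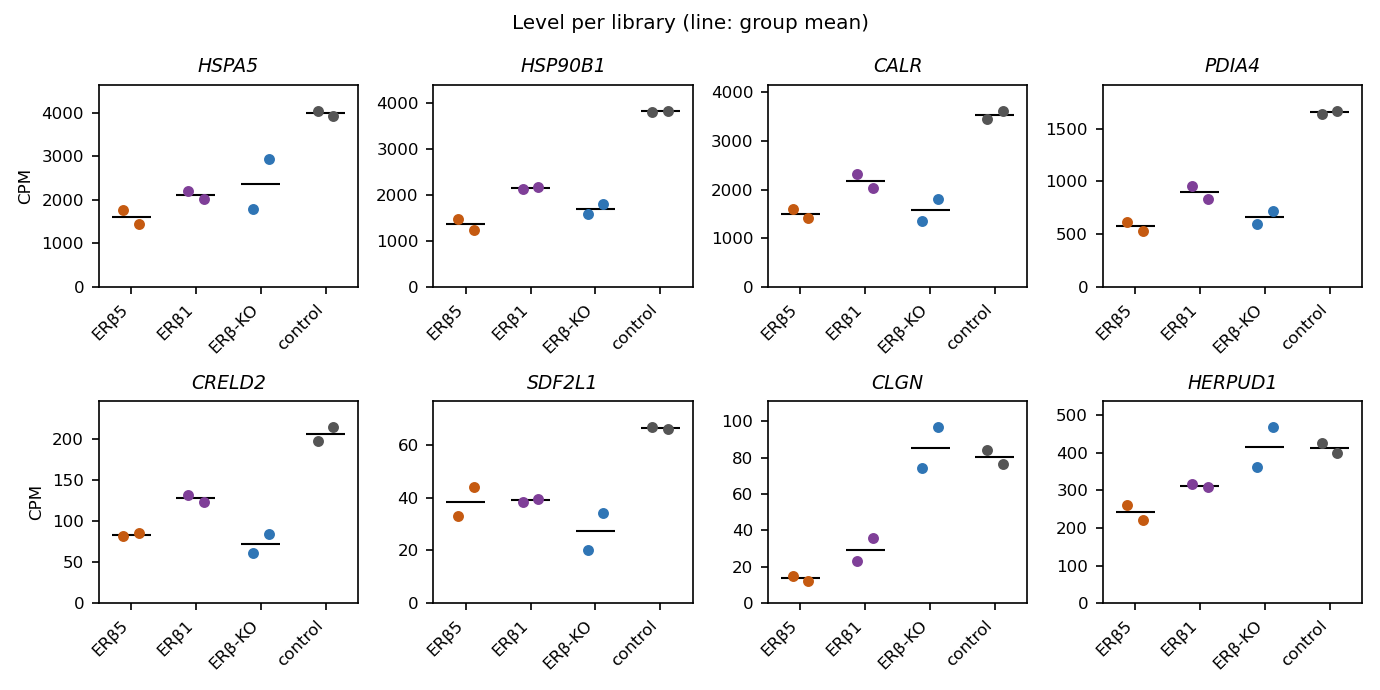
CPM in each library (points) and group means (lines) of 8 members, with the groups ERβ5, ERβ1, ERβ-KO and control from left to right. HSP90B1, CALR, PDIA4 and CRELD2 are highest in control and next in ERβ1 libraries, CLGN steps down to 29.3 CPM on average in ERβ1 and 13.7 in ERβ5 libraries, and HERPUD1 is lowest in ERβ5 libraries.

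Of the disulfide genes, P4HB, the catalytic subunit shared by protein disulfide isomerase and prolyl 4-hydroxylase, had the highest CPM, with 1480 and 1600 CPM in ERβ5, 1810 and 1680 in ERβ1, 1630 and 1880 in ERβ-KO and 2250 and 2290 CPM in control libraries. Control libraries did not overlap the others. For ERβ-KO over control the log2 fold change was -0.37 ± 0.11 (adjusted p = 0.0346), a call lost with the GC and length trend removed (-0.20, adjusted p = 0.131) and without control replicate 1 (0.165), control replicate 2 (0.227) or ERβ-KO replicate 1 (0.194). The isomerases PDIA6 (-0.62 ± 0.10) and PDIA3 (-0.60 ± 0.09, the partner of calnexin and calreticulin) were also called lower in ERβ-KO, both lost without control replicate 2 (0.0677 and 0.0583), and PDIA5 (-0.13 ± 0.10, adjusted p = 0.387), ERP29 and ERP44 were not. With the GC and length trend removed, ERP44 was called lower in ERβ-KO over control (-0.45, edgeR adjusted p = 0.0437). P4HB was then called lower in ERβ5 over ERβ-KO (-0.40, edgeR adjusted p = 0.00869). ERO1LB, 1 of the oxidases that recharge the isomerases, had 6.15 and 3.89 CPM in ERβ5, 7.73 and 9.07 in ERβ1, 4.84 and 9.02 in ERβ-KO and 13.7 and 13.0 CPM in control libraries. All non-control libraries were below both control libraries. In ERβ-KO over control ERO1LB stood at -0.96 ± 0.27 (adjusted p = 0.033, lost without control replicate 1 or control replicate 2, both 0.151, or ERβ-KO replicate 1, 0.19), and ERβ5 over control was -1.40 ± 0.28 (adjusted p = 0.00767, and 0.0576 without control replicate 1).

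ERN1 and ATF6, sensors of the response, went the other way and were higher in ERβ-KO than in control libraries. ERN1 (IRE1; GRCh37, chr17:62116440-62208179, minus strand), the sensor whose RNase splices XBP1, had 40.8 and 43.3 CPM in ERβ5, 37.1 and 30.0 in ERβ1, 71.7 and 77.2 in ERβ-KO and 58.2 and 48.1 CPM in control libraries. The ERβ-KO libraries were the highest and the ERβ1 libraries the lowest, without overlap between groups. Its log2 fold change in ERβ-KO over control was 0.48 ± 0.13 (1.40-fold, adjusted p = 0.0271), lost without any 1 of the 4 libraries (0.0611 and 0.261 without control replicates 1 and 2, 0.0889 and 0.11 without ERβ-KO replicates 1 and 2). Its log2 fold change in ERβ1 over ERβ-KO was -1.15 ± 0.13 (2.22-fold lower, adjusted p = 0.000151) and ERβ5 over ERβ-KO was -0.83 ± 0.13 (1.77-fold lower, adjusted p = 0.00217), both called without any single library. An antisense transcript overlaps ERN1 in the annotation.

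ATF6, the sensor that becomes a transcription factor (GRCh37, chr1:161736088-161947364, plus strand), had 205 and 186 CPM in ERβ5, 205 and 211 in ERβ1, 326 and 328 in ERβ-KO and 257 and 239 CPM in control libraries. ERβ-KO was the highest group, control came next, and ERβ5 and ERβ1 overlapped. For ERβ-KO over control the log2 fold change was 0.40 ± 0.09 (adjusted p = 0.0176), lost with the GC and length trend removed (0.18, adjusted p = 0.126) and without control replicate 1 (0.094), control replicate 2 (0.199), ERβ-KO replicate 1 (0.0851) or ERβ-KO replicate 2 (0.0596). For ERβ1 over ERβ-KO the log2 fold change was -0.65 ± 0.10 (adjusted p = 0.000807) and ERβ5 over ERβ-KO -0.74 ± 0.10 (adjusted p = 0.000696), and both calls were kept in those settings. EIF2AK3 (PERK) had 53.3 and 45.9 CPM in ERβ5, 46.3 and 53.7 in ERβ1, 64.5 and 65.5 in ERβ-KO and 63.1 and 56.6 CPM in control libraries. It was not called in ERβ-KO against control (0.12 ± 0.12, adjusted p = 0.497). It was called lower in ERβ1 over ERβ-KO (-0.38 ± 0.12, adjusted p = 0.0367) and in ERβ5 over ERβ-KO (-0.39 ± 0.12, adjusted p = 0.0306), calls lost with the GC and length trend removed (-0.24, adjusted p = 0.0652, and -0.21, adjusted p = 0.105). The first was also lost without ERβ-KO replicate 1 (0.109), ERβ-KO replicate 2 (0.124) or ERβ1 replicate 1 (0.222), and the second without ERβ-KO replicate 1 (0.0929), ERβ-KO replicate 2 (0.109) or ERβ5 replicate 2 (0.158).

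**Figure D4:**
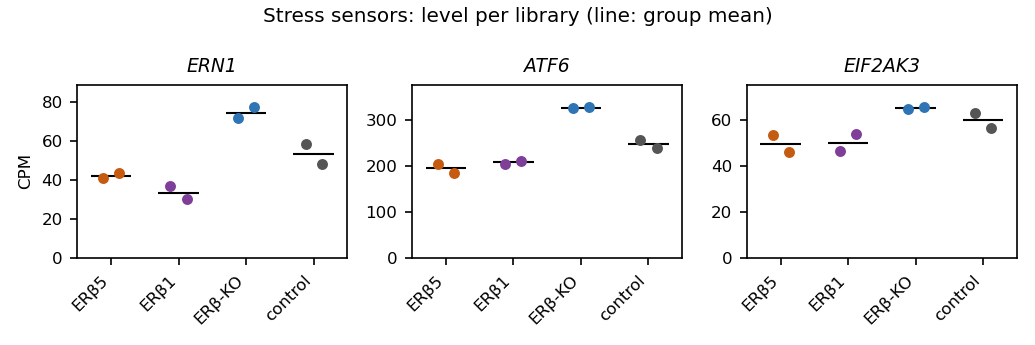
CPM in each library (points) and group means (lines) of the sensors ERN1, ATF6 and EIF2AK3, with the groups ERβ5, ERβ1, ERβ-KO and control from left to right. The ERβ-KO libraries are the highest for each sensor, at 326 and 328 CPM for ATF6, and the ERβ5 and ERβ1 libraries lie below control.

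In ERβ1 against ERβ-KO libraries 10 members were called lower (19.6%) and 5 higher (9.80%), against 12.5% and 12.4% of all genes, and the members' median was -0.14 with all genes at 0. That median was -0.05 with the GC and length trend removed, -0.22 without ERβ-KO replicate 1 and 0.01, on the other side of 0, without ERβ-KO replicate 2. The share called higher was no larger than in all genes. The 5 rises were HSP90B1, CALR, CRELD2, PDIA4 and SSR4, all 5 of them called lower in ERβ-KO against control, a comparison that shares the ERβ-KO libraries. Of the 17 members that were lower in ERβ-KO, the other 12 were not called in ERβ1 against ERβ-KO. With the GC and length trend removed PDIA3, 1 of the 12, was called higher (0.28, edgeR adjusted p = 0.028). The falls of the main fit were all 3 sensors, CLGN, 3 disulfide genes (DNAJC10, ERO1L and PDIA5), HERPUD1 and the translocation genes SEC63 and SSR1. SEC63, a partner of the Sec61 channel, was at -0.39 (adjusted p = 0.0463), and at -0.14 with the GC and length trend removed (adjusted p = 0.227). Its call was also lost with the replicate block (0.0531), with upper quartile size factors (0.0575) and without ERβ-KO replicate 1 (0.111), ERβ-KO replicate 2 (0.161) or ERβ1 replicate 1 (0.304). SSR1, a TRAP subunit, was at -0.47 (adjusted p = 0.0329), and at -0.26 with that trend removed (adjusted p = 0.216), and its call was lost without ERβ-KO replicate 2 (0.204) or ERβ1 replicate 1 (0.263). Rises numbered 1 without ERβ-KO replicate 1, 1 without ERβ1 replicate 1 and 3 without ERβ1 replicate 2, and falls numbered 3 without ERβ-KO replicate 2 and 4 without ERβ1 replicate 1.

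CLGN (calmegin), a calnexin relative best known from its role in sperm in mice (GRCh37, chr4:141309607-141348815, minus strand), had 15 and 12.3 CPM in ERβ5, 23.0 and 35.7 in ERβ1, 74.2 and 96.7 in ERβ-KO and 84.1 and 76.7 CPM in control libraries. ERβ-KO and control overlapped, ERβ1 lay below both, and ERβ5 lay below ERβ1. In ERβ1 over ERβ-KO CLGN stood at -1.53 ± 0.20 (2.89-fold lower, adjusted p = 0.000464) and ERβ5 over ERβ-KO was -2.64 ± 0.21 (6.23-fold lower, adjusted p = 0.000133). In ERβ-KO over control CLGN stood at 0.09 ± 0.19 (adjusted p = 0.774). ERβ5 over ERβ1 was -1.11 ± 0.20 (adjusted p = 0.0115), a call lost without ERβ1 replicate 2 (0.0872) or ERβ5 replicate 2 (0.141). CLGN was also the member with the largest fall against control, at -2.55 ± 0.21 in ERβ5 (adjusted p = 4.99e-05) and -1.45 ± 0.20 in ERβ1 (adjusted p = 0.0023).

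ERO1L, the more abundant ER oxidase, had 124 and 141 CPM in ERβ5, 72.7 and 103 in ERβ1, 133 and 194 in ERβ-KO and 166 and 113 CPM in control libraries. The ERβ1 libraries were below all others, and the replicates of ERβ1, of ERβ-KO and of control were far apart from each other. In ERβ1 over ERβ-KO ERO1L stood at -0.89 ± 0.23 (adjusted p = 0.0239), lost with the GC and length trend removed (-0.58, adjusted p = 0.133) and without ERβ-KO replicate 2 (0.131) or ERβ1 replicate 1 (0.187). SSR4, a subunit of the translocon-associated protein (TRAP) complex, had 278 and 350 CPM in ERβ5, 341 and 332 in ERβ1, 205 and 278 in ERβ-KO and 378 and 413 CPM in control libraries. ERβ-KO libraries were the lowest, with ERβ5 replicate 1 level with ERβ-KO replicate 2 at 278 CPM. In ERβ-KO over control SSR4 stood at -0.71 ± 0.15 (adjusted p = 0.00971, and -0.38 with the GC and length trend removed), a call lost without control replicate 2 (0.093) or ERβ-KO replicate 1 (0.0827). For ERβ1 over ERβ-KO the log2 fold change was 0.48 ± 0.15 (adjusted p = 0.0341, lost with the GC and length trend removed, at 0.17 and adjusted p = 0.196, and without ERβ-KO replicate 1, 0.235, ERβ1 replicate 1, 0.162, or ERβ1 replicate 2, 0.0778). ERβ5 over ERβ-KO was 0.38 ± 0.15 (adjusted p = 0.0713). A processed copy named SSR4P1 is in the annotation, so that reads the copies share would be uncounted or split.

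In ERβ5 against ERβ-KO libraries 18 members were called lower (35.3%) and none higher, against 13.5% lower and 14.7% higher among all genes, with a median of -0.31 for the members and 0.008 for all genes. At an unadjusted p under 0.05, edgeR had 3 members higher, and DESeq2 called 2 members higher. The falls were 6 of 16 chaperones, 2 of 11 disulfide genes, 3 of 9 ERAD genes, all 3 sensors and 4 of 12 translocation genes. With the GC and length trend removed 14 members were called lower and the median was -0.18. Without ERβ-KO replicate 2 the median was -0.19. Without ERβ-KO replicate 2 there were 6 falls and 3 rises, without ERβ5 replicate 2 there were 9 falls, and without ERβ5 replicate 1 there were 22 falls and 2 rises. Of the 17 members lower in ERβ-KO against control, none was called higher in ERβ5 over ERβ-KO. With the GC and length trend removed, MANF was lower in ERβ-KO against control (-0.58, edgeR adjusted p = 0.00721) and again in ERβ5 over ERβ-KO (-0.34, adjusted p = 0.0447). In the main fit 1 of the 17, DNAJB11, was called lower again (-0.39 ± 0.12, adjusted p = 0.034). That second fall was lost with the GC and length trend removed (-0.31, adjusted p = 0.0729) and without ERβ-KO replicate 2 (0.247) or ERβ5 replicate 2 (0.158).

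HERPUD1, an ERAD scaffold and a common read-out of the unfolded protein response, had 260 and 222 CPM in ERβ5, 316 and 308 in ERβ1, 361 and 467 in ERβ-KO and 425 and 399 CPM in control libraries. ERβ-KO and control overlapped, and ERβ5 was below ERβ1. ERβ5 over ERβ-KO was -0.78 ± 0.13 (1.72-fold lower, adjusted p = 0.00253), called without any single library. In ERβ1 over ERβ-KO HERPUD1 stood at -0.41 ± 0.13 (adjusted p = 0.0376), lost with the GC and length trend removed (-0.36, adjusted p = 0.0638) and without ERβ-KO replicate 2 (0.284), ERβ1 replicate 1 (0.143) or ERβ1 replicate 2 (0.109). DNAJC10 (ERdj5), a reductase that opens disulfide bonds before degradation, had 271 and 228 CPM in ERβ5, 283 and 342 in ERβ1, 425 and 468 in ERβ-KO and 419 and 415 CPM in control libraries. ERβ5 and ERβ1 were below the other groups. ERβ5 over ERβ-KO was -0.84 ± 0.12 (1.79-fold lower, adjusted p = 0.00125) and was called without any single library, and ERβ1 over ERβ-KO was -0.52 ± 0.12 (adjusted p = 0.0105, lost with the GC and length trend removed, at -0.21 and adjusted p = 0.101, and without ERβ-KO replicate 2, 0.0661, or ERβ1 replicate 1, 0.109).

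Among the ERAD genes OS9, a lectin that selects misfolded glycoproteins, had the highest CPM, with 579 and 601 CPM in ERβ5, 662 and 593 in ERβ1, 572 and 564 in ERβ-KO and 755 and 811 CPM in control libraries. All non-control libraries were below control. For ERβ-KO over control the log2 fold change was -0.46 ± 0.10 (adjusted p = 0.0111, lost without control replicate 1, 0.0645, control replicate 2, 0.144, or ERβ-KO replicate 1, 0.0628). SEL1L and EDEM3, the adaptor of the HRD1 ligase and a mannosidase, were called lower in ERβ5 against ERβ-KO (-0.59 ± 0.16 and -0.58 ± 0.14), while the ligase itself, SYVN1 (HRD1), was at 0.09 ± 0.14 (adjusted p = 0.647). Both calls were lost with the GC and length trend removed (-0.30, adjusted p = 0.0947, and -0.24, adjusted p = 0.0617), without ERβ-KO replicate 2 (0.111 and 0.0642) and without ERβ5 replicate 2 (0.105 and 0.0668). EDEM2, DERL1 and DERL2 were not called in any comparison of the main fit. With the GC and length trend removed, DERL2 was lower in ERβ-KO against control (-0.51, edgeR adjusted p = 0.019). EDEM2 was then lower in ERβ1 against ERβ-KO (-0.22, edgeR adjusted p = 0.0414).

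SEC61A1, the pore-forming subunit of the Sec61 channel and the translocation gene with the highest CPM, was nearly level. It had 876 and 883 CPM in ERβ5, 859 and 832 in ERβ1, 875 and 986 in ERβ-KO and 921 and 940 CPM in control libraries. ERβ-KO overlapped ERβ5 and control. The log2 fold change of ERβ-KO over control was 0.00 ± 0.10 (95% interval -0.21 to 0.21, adjusted p = 1), and none of its 6 comparisons was called. The other channel subunits SEC61B and SEC61G, SEC62 and the signal peptidase subunits SPCS1, SPCS2 and SPCS3 were not called in any comparison of the main fit either. With the GC and length trend removed, SEC61B was lower in ERβ1 over ERβ-KO (-0.28, edgeR adjusted p = 0.0152). In ERβ5 over ERβ-KO it was then lower too (-0.28, edgeR adjusted p = 0.0223). In the TRAP complex SSR1, SSR2 and SSR3 were called lower in ERβ5 against ERβ-KO (-0.64 ± 0.14, -0.47 ± 0.10 and -0.55 ± 0.12), of which SSR2 was called without any single library. The other two were lost with the GC and length trend removed (-0.40, adjusted p = 0.084 for SSR1 and -0.20, adjusted p = 0.0962 for SSR3) and without ERβ-KO replicate 2 (0.0709 and 0.0528), and SSR1 without ERβ5 replicate 2 (0.0518), while SSR4, of the same complex, was not lower there.

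**Figure D5:**
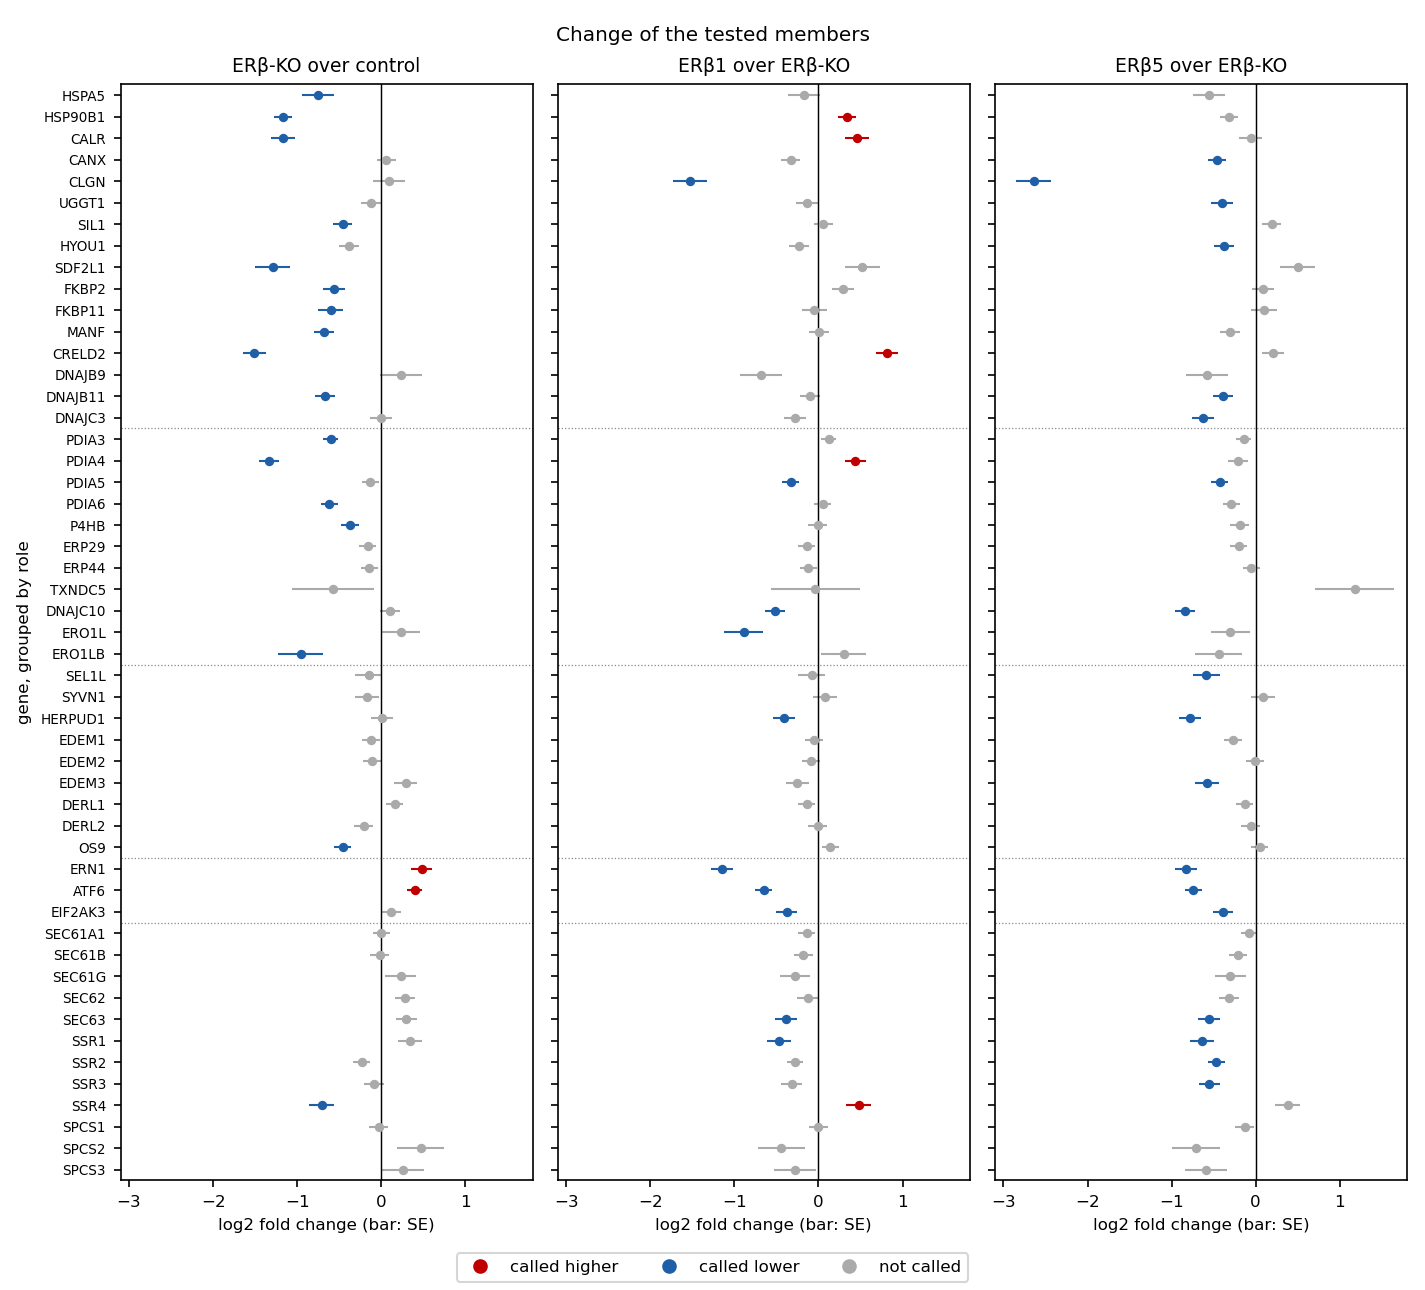
Log2 fold change (points) and its SE (bars) of the 51 tested members, grouped by role, in ERβ-KO over control, ERβ1 over ERβ-KO and ERβ5 over ERβ-KO, with called rises in red and called falls in blue. Falls number 17, 10 and 18 and rises 2, 5 and 0 in the 3 panels, and CLGN stands at -1.53 and -2.64 in the panels on ERβ1 and ERβ5. Both of those panels share the ERβ-KO libraries with the panel on ERβ-KO.

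In ERβ5 against ERβ1 libraries 4 members were called lower (7.84%) and none higher, against 1.18% lower and 3.49% higher among all genes. They were HSP90B1, CLGN, CRELD2 and PDIA4, whose values are given above. At an unadjusted p under 0.05 edgeR had 3 members higher, and DESeq2 called none higher. CALR, which had risen in ERβ1 against ERβ-KO, was at -0.52 ± 0.14 (adjusted p = 0.0536, 95% interval -0.83 to -0.22). The members' median was -0.17, with all genes at -0.005. The number of falls was 1 without ERβ1 replicate 1, 1 without ERβ1 replicate 2, 1 without ERβ5 replicate 2 and 10 without ERβ5 replicate 1. It was 7 with the GC and length trend removed, where CALR (-0.52, edgeR adjusted p = 0.0322), DNAJC10 (-0.34, 0.0385) and SEL1L (-0.48, 0.0334) were called too.

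Against control libraries members were lower in both isoform groups. In ERβ5 against control 29 members were called lower (56.9%) and none higher, against 6.31% lower and 6.85% higher among all genes, with medians of -0.41 for the members and 0.007 for all genes. They were 14 of 16 chaperones, 8 of 11 disulfide genes, 4 of 9 ERAD genes, 1 of 3 sensors (ATF6) and 2 of 12 translocation genes. The largest falls after CLGN were PDIA4 (-1.53 ± 0.12, adjusted p = 2.97e-05), HSP90B1 (-1.49 ± 0.12, adjusted p = 2.45e-05) and ERO1LB. In 15 of the 29 the call was kept in every alternative other than the test against a 1.5-fold change. In every other comparison a smaller share of the calls was kept that way. The count was 15 without control replicate 1 and 18 without control replicate 2. In ERβ1 against control 15 members were called lower (29.4%) and none higher, against 2.70% lower and 1.36% higher among all genes, with a median of -0.32 for the members. The largest falls after CLGN were HSPA5, PDIA4 (-0.88 ± 0.12, adjusted p = 0.00198) and HSP90B1 (-0.83 ± 0.11, adjusted p = 0.00194). The count was 4 without control replicate 1, 5 without control replicate 2, 7 without ERβ1 replicate 1 and 3 without ERβ1 replicate 2, and it was 23 with the GC and length trend removed. In neither comparison was a member higher at an unadjusted p under 0.05 in edgeR or by DESeq2's adjusted p. Both comparisons share the control libraries with ERβ-KO against control.

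Put together over ERβ-KO against control, ERβ1 against ERβ-KO and ERβ5 against ERβ-KO, 16 of the 51 members were called in none. A further 11 were lower in ERβ-KO alone, 8 were lower in ERβ5 alone and 7 were lower in both isoform groups. The 5 that were lower in ERβ-KO and higher in ERβ1 are named above, ERN1 and ATF6 were the 2 that were higher in ERβ-KO and lower with both isoforms, DNAJB11 was lower in ERβ-KO and again in ERβ5, and ERO1L was lower in ERβ1 alone. The counts place members by a threshold, and whether a call in 1 comparison differs from a missed call in another was tested only between ERβ5 and ERβ1. Read against the promoters, the 6 members with ERSE held 5 falls in ERβ-KO against control (median -1.06) and the 42 other members with a window held 11 (median -0.12). In ERβ1 against ERβ-KO the members with ERSE held 3 rises and no fall (median 0.32), against 2 rises and 10 falls in the others (median -0.14). In ERβ5 against ERβ-KO the members with ERSE held 1 fall (CANX, median -0.38) and the others 17 (median -0.32), and CANX was at -0.46 (adjusted p = 0.014), or -0.15 with the GC and length trend removed (adjusted p = 0.242). In ERβ5 against ERβ1 falls numbered 2 of 6 (median -0.56) and 2 of 42 (median -0.15). Against control, members with ERSE held 6 falls in ERβ5 (median -1.31) and 4 in ERβ1 (median -0.69), and the 42 others 22 (median -0.35) and 10 (median -0.29). These counts describe the list, and no test was made of them. The 42 others include the holders of ERSE-II or UPRE, which are HYOU1, SDF2L1, HERPUD1, DNAJC10 and SEC62. All members with ERSE except ERO1LB are chaperones, of which 10 of 16 were lower in ERβ-KO against control (median -0.58). Among the chaperones in that comparison, HSPA5, HSP90B1, CALR and CRELD2 with ERSE were lower, and CANX with ERSE was not called. Of those without ERSE, SDF2L1, MANF, DNAJB11, FKBP11, FKBP2 and SIL1 were lower. CLGN, UGGT1, HYOU1, DNAJB9 and DNAJC3, also without it, were not called. Element and role thus overlap in part, and their separate parts were not tested. In only the 150 bases before the start, 3 members hold ERSE.

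The transcription factors XBP1 and ATF4 were not called in any comparison. XBP1 stayed between 3420 and 3950 CPM (ERβ-KO over control 0.07 ± 0.10, adjusted p = 0.643), and a gene count does not show how much of it is spliced. ATF4 stayed between 422 and 600 CPM (ERβ-KO over control -0.19 ± 0.12, adjusted p = 0.299). DDIT3 (CHOP), the factor linked to cell death, had 253 and 349 CPM in ERβ5, 239 and 221 in ERβ1, 307 and 464 in ERβ-KO and 453 and 446 CPM in control libraries. It was called lower in ERβ1 over ERβ-KO (-0.74 ± 0.19, adjusted p = 0.0176) and over control (-0.96 ± 0.19, adjusted p = 0.0191), and ERβ5 over ERβ-KO was -0.36 ± 0.19 (adjusted p = 0.172). Of the 10 response factors and proteases, CREB3L4, a membrane-bound factor of secretory epithelium, was lower in ERβ-KO against control (-0.57 ± 0.10). It was higher in ERβ1 over ERβ-KO (0.63 ± 0.10). MBTPS2, a protease that cuts ATF6, was higher in ERβ-KO against control (0.42 ± 0.12). It was lower in ERβ1 and ERβ5 over ERβ-KO (-0.52 ± 0.12 and -0.35 ± 0.12). In ERβ1 over ERβ-KO 3 of the 10 were lower (30%) and 1 higher (10%), against 12.5% and 12.4% of all genes. In ERβ5 over ERβ-KO 2 were lower (20%) and none higher, against 13.5% and 14.7% of all genes. CREB3L2, of the same list, averaged 112 CPM in ERβ5, 123 in ERβ1, 164 in ERβ-KO and 149 CPM in control libraries.

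Neighbouring steps of the secretory pathway were looked at through 7 further lists, of which 88 of 90 genes were found. Calls of these lists, the response factors above among them, are from the main fit. Whether they hold with the GC and length trend removed or with a library left out was not tested. Beside all genes, of which 8.98% were called higher and 8.52% lower in ERβ-KO against control, the oligosaccharyltransferase subunits held 2 falls in 11 (RPN1 and DDOST, -0.36 ± 0.10 and -0.35 ± 0.10) and no rise, the signal recognition particle and its receptor 1 rise in 8 (SRP54, 0.48 ± 0.09), vesicle coats and cargo receptors 4 rises and 3 falls in 20, cytosolic ERAD factors 1 rise in 11 and other folding factors 2 rises and 1 fall in 19. Of 9 genes listed as feedback and targets of the PERK arm, ASNS (asparagine synthetase, an ATF4 target) was higher (0.67 ± 0.12, edgeR adjusted p = 0.00535). No other was called. The list is named for the pathway, and whether PERK acted on these genes was not tested.

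Over ERβ-KO 12.5% of all genes were called lower in ERβ1 and 13.5% in ERβ5, beside which the following counts stand. They too are from the main fit, and the ERβ-KO libraries had the strongest correlation with GC content (-0.566 and -0.464). Its part in these counts was not tested. In ERβ1 over ERβ-KO 5 of the 9 PERK arm genes were called lower (55.6%), with ATF3 at -0.92 ± 0.20, ASNS at -0.85 ± 0.12 and TRIB3 at -0.66 ± 0.17 the largest, and no gene of the list was higher. In ERβ5 over ERβ-KO 4 were lower (44.4%), with ASNS at -1.01 ± 0.12 and CHAC1 at -0.84 ± 0.20. Vesicle coat and cargo receptor genes held 5 falls in 20 in ERβ1 (25.0%) and 10 in ERβ5 over ERβ-KO (50.0%), among them the cargo receptor LMAN1 (-0.49 ± 0.15 and -0.77 ± 0.15) and the coat subunit SEC24A (-0.54 ± 0.12 and -0.73 ± 0.12). Oligosaccharyltransferase subunits held 2 falls in 11 in ERβ1 (18.2%, STT3A and OSTC) and 4 in ERβ5 (36.4%, STT3A, STT3B, OSTC and MAGT1) over ERβ-KO, and the signal recognition particle list 3 falls in 8 in ERβ5 (37.5%) and 4 in ERβ1 (50.0%). In ERβ5 against control, where 6.31% of all genes were lower and 6.85% higher, oligosaccharyltransferase subunits held 6 falls in 11 (54.5%). Vesicle coats and cargo receptors held 7 falls and 1 rise in 20. The signal recognition particle list held 1 fall in 8, PERK arm genes 1 in 9 and response factors and proteases 2 in 10. Cytosolic ERAD factors held 2 rises in 11, and no other folding factor was called. Lists this short place a share only coarsely, and none was tested as a list. In ERβ5 against ERβ1 CREB3L4 was the gene of these lists that was called (-0.46 ± 0.10, adjusted p = 0.02). KRT8, 1 of the 7 luminal markers, was lower in ERβ-KO against control (-0.59 ± 0.11) and higher in ERβ1 and ERβ5 over ERβ-KO (1.00 ± 0.11 and 0.99 ± 0.11). The members held 17 falls and 2 rises in ERβ-KO against control. Over ERβ-KO they held 10 falls and 5 rises in ERβ1, and 18 falls and no rise in ERβ5. Compared with control libraries, the summed luminal markers were lower in ERβ-KO and higher in both isoform groups. Members called against control in either isoform group were all lower. The part of these markers in the members' values was not tested.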

How the data were processed

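Total RNA from 8 libraries labelled U87 MG had been made into TruSeq libraries and sequenced as single-end reads, per the labels' protocols. The authors deposited unnormalised read counts for each gene, made with bcl2fastq, TopHat2 2.0.8b on hg19 and HTSeq, per the submitters' processing notes. HTSeq's version and strand setting and the gene annotation were not given in the sources used here, so reads of a gene and of an antisense partner (annotated for 21 members) cannot be told apart. Reads with no unique place (34.7 to 39.9%), in no gene (7.01 to 7.79%) or ambiguous between genes (0.54 to 0.561%) named no gene and stayed out of library sizes, and 8 members with pseudogenes named after them may have lost reads that way.

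Libraries were assigned to groups by their titles. The filterByExpr function kept 13915 genes (at least 10 counts and 15 in total), which were scaled with TMM and tested with edgeR 4.0.16 in R 4.3.3 (quasi-likelihood F test, robust, all 8 libraries in 1 fit, common coefficient of variation 0.102), with Benjamini-Hochberg adjustment over all genes tested. SE is the log2 fold change over the square root of F, and CPM are counts scaled to a common size by TMM-scaled gene reads. Transcript lengths, GC content and positions came from a GENCODE annotation on GRCh37 (GC values for 94.3% of tested genes), and promoters from RefSeq on GRCh38.p14. The fit was tested on simulated data first.

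The members, lists and rules were chosen with earlier results of these data known. Given in every library are HSPA5, up to 4 called members with the largest rises and falls in each comparison (at least 5 CPM on average in the higher group) and the member with the highest CPM in each role, and of other lists up to 4 called genes with the largest change, with XBP1, ATF4 and DDIT3. The alternatives were other size factors and filters, a test against a change of 1.5-fold, only the groups compared, DESeq2 1.42.0, removal of each library's GC and length trend (lowess, span 0.3), a block for the replicate number, and the omission of each library, where the remaining library of that group is taken to vary as the other groups do.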

Additional observations from a re-analysis of the deposited data

Results flagged for a closer look

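For 4 members the change in ERβ5 and the change in ERβ1, both taken over the same ERβ-KO libraries, differed by the direct test of ERβ5 against ERβ1 (edgeR, adjusted p under 0.05). The log2 difference of ERβ5 over ERβ1 was -1.11 for CLGN, -0.66 for HSP90B1, -0.65 for PDIA4 and -0.61 for CRELD2. CLGN was lower with both isoforms and more so with ERβ5. HSP90B1, PDIA4 and CRELD2 were called higher in ERβ1 over ERβ-KO and not called in ERβ5 over ERβ-KO. Each of the 4 differences was lost when at least 1 single library was left out.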

How the results depend on the processing

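The members' median log2 change moved by less than the SD between replicates of their median level (0.179 on the log2 scale) in every alternative, an SD larger than the medians of ERβ-KO against control, ERβ1 against ERβ-KO and ERβ5 against ERβ1 themselves. In ERβ1 against ERβ-KO the median was -0.14 and changed sign, to 0.01, without ERβ-KO replicate 2. Over the 1571 repeats of single members, 1094 kept their direction and side of the threshold, 306 lost a call, 170 gained one and 1 reversed among members called in either fit: FKBP2 in ERβ5 over ERβ-KO was 0.09 (adjusted p = 0.607), -0.23 with the GC and length trend removed (0.0588) and -0.23, then called (0.0486), with the replicate block added. Counts of members called that changed by more than 1.5 times were the following, and the cause was not tested. With the GC and length trend removed, 1 member was higher in ERβ-KO against control, 23 lower in ERβ1 against control and 7 lower in ERβ5 against ERβ1. With the replicate block as well, 1 was higher in ERβ-KO against control and 8 were lower in ERβ5 against ERβ1. With the replicate block alone, 2 were higher in ERβ5 against ERβ-KO. DESeq2 also called 2 higher there. Without a filter, 4 were higher in ERβ-KO against control, 2 higher in ERβ5 against ERβ-KO, 1 higher and 11 lower in ERβ5 against ERβ1, and 24 lower in ERβ1 against control. With only the groups compared, 6 were higher in ERβ-KO against control. Against a 1.5-fold change, which asks for more than a change of any size, 0 were higher and 4 lower in ERβ-KO against control, 0 higher and 2 lower in ERβ1 against ERβ-KO, 1 lower in ERβ5 against ERβ-KO, 0 lower in ERβ5 against ERβ1, 1 lower in ERβ1 against control and 9 lower in ERβ5 against control.

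Leaving out 1 library, ERβ-KO against control had 5 to 18 members lower and 0 higher, ERβ1 against ERβ-KO 3 to 12 lower and 1 to 5 higher, ERβ5 against ERβ-KO 6 to 22 lower and 0 to 3 higher, ERβ5 against ERβ1 1 to 10 lower, ERβ1 against control 3 to 7 lower and ERβ5 against control 15 to 26 lower. The replicate numbers were not taken to pair libraries: same-numbered libraries of 2 groups deviated from their group means with correlations of -0.12 to 0.139, and nothing in the labels ties the numbers. Of the promoter shares, searching only the 150 bases before the start left ERSE in 6.25% of members' windows and 0.0513% of all.

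Groups of 2 libraries and counts of around 10 CPM or fewer limit the precision for TXNDC5, ERO1LB and SPCS2.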
